A study of Mus musculus with 4 samples.

Results

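The genes described here are 42 mouse genes of DNA replication and S phase, and their RNA was compared between intestinal stem cells (ISCs) of young and old mice. They were picked by name for their known function, by matching the gene symbols in the count table to a written list, and all 42 were found among the 52459 genes listed. The filter on low counts left 41 of the 42 to be tested, all but Fen1.

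A cell copies its genome once per division. Origins of replication are first licensed by loading the MCM2 to MCM7 ring onto DNA, a step carried out by the origin recognition complex, CDC6 and CDT1. At the start of S phase CDC45 and the GINS complex join the ring to make the active helicase, DNA polymerase alpha and primase begin each strand, and the clamp PCNA, placed by the RFC loader, holds the polymerases on DNA. Most of these genes are transcribed at the G1/S boundary by the E2F factors, which bind short GC-rich promoter elements. Stem cells at the crypt base of the small intestine divide often, so that replication genes are part of their usual expression programme.

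RNA-seq libraries were made from ISCs of wild type (WT) C57/Bl6 mice at 2 months (ISC_2mth, young) and at 22 months (ISC_22mth, old), with 2 libraries per age. Each library came from the pooled cells of 5 animals, so that variation between single animals cannot be seen. In both ages ISCs were sorted from small intestinal crypts as CD31-, CD45-, CD24med, CD166+, CD44high, GRP78low, EPHB2high and EPCAM+ cells (the SM6 strategy), and no transgene or reporter was used. RNA was amplified along the whole transcript by SPIA, a linear amplification that adds no molecular identifiers, so that reads are not independent molecules.

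Between 11662654 and 15975698 reads were counted per pool. Mitochondrially encoded genes took 62.6% and 65.7% of them in ISC_2mth and 73.8% and 72.9% in ISC_22mth, which left between 3852178 and 4593004 reads on all other genes. Levels are given as CPM, read counts divided by the library total in units of 1000000 reads, with totals scaled by the TMM method, which sets the scale by the bulk of the genes and not by the mitochondrial ones. The summed CPM of 10 stem cell markers was 3028 and 2854 in ISC_2mth and 2826 and 3038 in ISC_22mth, with 0 called. Olfm4 and Slc12a2 carried most of this sum, and single markers differed in direction. The log2 fold change was below 0 for Axin2 (-0.46, FDR = 0.051), Tnfrsf19 (-0.46), Rnf43 (-0.41), Sox9 (-0.28), Znrf3 (-0.22), Lgr5 (-0.16) and Olfm4 (-0.08). It was above 0 for Ascl2 (0.33), Slc12a2 (0.25) and Smoc2 (0.15). Markers of other cells were also present. The summed CPM of 6 goblet cell markers was 1773 and 2341 in ISC_2mth and 2408 and 1885 in ISC_22mth, with 0 called. That of 6 enteroendocrine markers was 26.0 and 123 against 106 and 72.3, with 0 called of the 5 that could be tested. For 5 Paneth cell markers it was 685 and 521 against 1595 and 587, with Defa17 and Defa24 called higher in ISC_22mth, and for 6 enterocyte markers 169 and 192 against 376 and 259, with Fabp1 and Sis called higher. For 4 tuft cell markers it was between 2.83 and 7.64, with Dclk1 called higher. Of 7 leukocyte markers (18.6 and 20.2 against 26.4 and 26.9), Itgam carried most of the sum and was called higher (log2 fold change 0.78, FDR = 0.030), while Ptprc had at most 2 reads in a pool, and of 4 markers of endothelium and stroma, Cdh5 and Pdgfra were at 0. The part of these cells in the results on replication genes was not tested.

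The E2F element was looked for in the promoters of the genes, since it links most of them in the textbook account. RefSeq promoter windows of GRCm38, from 250 bases before to 50 after a gene's start, were at hand for 34 of the 42 genes. The words searched on both strands were TTTCCCGC, TTTGGCGC, TTTCGCGC and TTTGCCGC, which can overlap one another. At least 1 of them was found for 13 of the 34 genes (38.2%), against 445 of 9438 tested genes with a window (4.71%) and 704 of 27025 genes of the genome (2.60%). Of 40 genes of G2 and mitosis, written down as a comparison list, 34 had a window and 3 held such a word (8.82%), and of 67 other genes of replication, 52 had a window and 18 held one (34.6%). The word TTTGAA, the core of the CHR element of mitotic promoters, was found for 26 of the 34 genes of G2 and mitosis (76.5%), for 5 of the 34 replication genes (14.7%) and for 14.9% of tested genes. A match describes the letters in the window and shows no binding. The stretches from 250 to 21 bases before the start are shown for 3 genes, chosen to set a promoter with several E2F words beside one with 1 and one with none. Mcm6 lies at chr1:128359726-128359955 (minus strand), Pola1 at chrX:93632176-93632405 (minus strand) and Rrm2 at chr12:24708004-24708233 (plus strand), and each is written 5′ to 3′ on the strand of its gene. Capitals mark E2F words on either strand and CCAAT boxes, written CCAAT or ATTGG.
Mcm6: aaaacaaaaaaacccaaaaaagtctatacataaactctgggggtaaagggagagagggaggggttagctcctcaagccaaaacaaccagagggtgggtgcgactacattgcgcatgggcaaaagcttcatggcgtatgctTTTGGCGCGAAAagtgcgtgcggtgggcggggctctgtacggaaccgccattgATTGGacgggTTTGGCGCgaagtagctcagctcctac
Pola1: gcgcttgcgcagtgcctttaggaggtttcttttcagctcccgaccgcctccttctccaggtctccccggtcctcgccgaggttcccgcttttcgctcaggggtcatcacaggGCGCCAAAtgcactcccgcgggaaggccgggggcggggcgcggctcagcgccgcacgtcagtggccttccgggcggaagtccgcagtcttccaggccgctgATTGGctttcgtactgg
Rrm2: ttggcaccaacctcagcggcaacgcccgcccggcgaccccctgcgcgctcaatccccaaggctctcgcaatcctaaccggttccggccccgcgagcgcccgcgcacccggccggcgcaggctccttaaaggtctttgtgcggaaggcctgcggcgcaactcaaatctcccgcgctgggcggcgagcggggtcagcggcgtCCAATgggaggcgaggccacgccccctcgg
In the Mcm6 stretch 3 E2F words were found, 2 of them overlapping, while Pola1 held 1 and Rrm2 held 0.

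The first question was whether the replication genes as a group differed in level between young and old ISCs. Their summed level was 1014 and 1016 CPM in the ISC_2mth pools and 1036 and 1088 CPM in the ISC_22mth pools. Both old pools lay above both young ones, but the ratio of the means was 1.05, and the old pools differed from each other by more than the nearest old and young pools did. As a share of all reads outside mitochondrial genes, replication genes took 0.337% and 0.334% in ISC_2mth and 0.327% and 0.345% in ISC_22mth, so that on this scale the ages overlapped. In bulk RNA, a different number of cells in S phase and a different amount of RNA per cell cannot be told apart. With 2 pools per age an exact permutation test cannot give a p below 1 in 3, and none is given for the sums.

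Gene by gene, 0 of the 41 replication genes passed an FDR of 0.05 by edgeR's quasi-likelihood test, against 2.26% of the 13692 genes tested (1.63% higher and 0.628% lower in ISC_22mth). At an unadjusted p under 0.05 there were 6 (14.6%), 4 higher (Rrm2, Gins4, Rfc5 and Pcna) and 2 lower (E2f2 and Tk1), against 16.9% of all genes (9.26% higher and 7.65% lower). DESeq2 called 0 of the 41 (1.44% of all genes), with 2 at an unadjusted p under 0.05 (10.2% of all genes). The log2 fold change of ISC_22mth over ISC_2mth was above 0 for 23 genes and below 0 for 18. Its median was 0.05, against -0.01 over all genes tested, its quartiles were -0.12 and 0.20, and its range was -0.51 to 0.55. The scale matters for the sign of such small values. With counts scaled by library totals alone, which include the mitochondrial reads, the median of all genes moved to -0.50 and that of the replication genes to -0.44, so that the difference between them was 0.05, against 0.06 with TMM. On that scale 38 of the 41 lay below 0 and 16 had an FDR under 0.05, all lower in ISC_22mth (39.0%, against 33.3% of all genes lower).

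**Figure D1:**
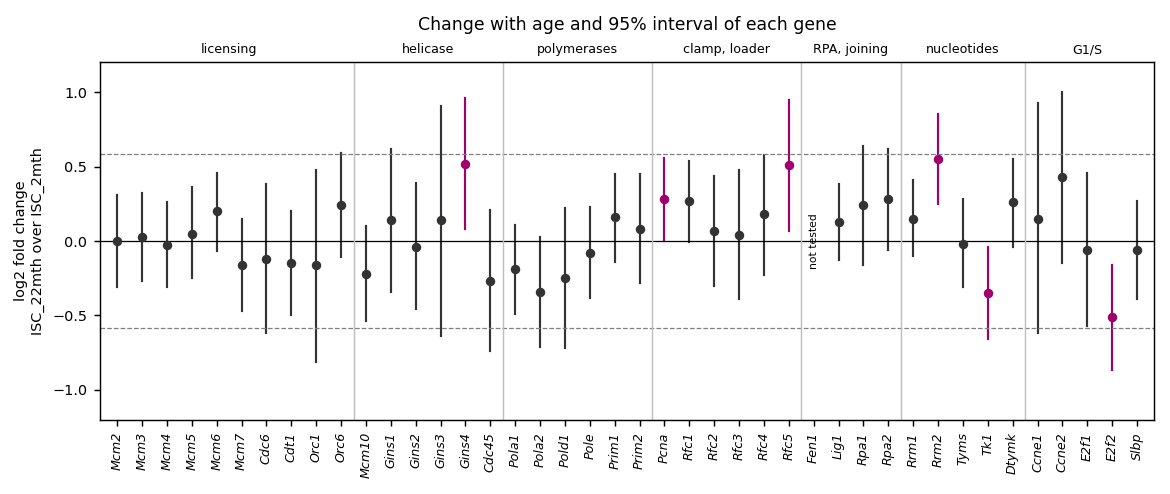
Log2 fold change (ISC_22mth over ISC_2mth, y axis) of the 41 replication genes tested, grouped by role (x axis), with vertical lines for the 95% interval of the quasi-likelihood fit and dashed lines at a 1.5-fold change. The intervals of 35 genes include 0, those of the 6 coloured ones do not, and the ends of the range are E2f2 at -0.51 and Rrm2 at 0.55.

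The precision of the data limits how large an unseen change could be. The 95% interval of the log2 fold change stayed within a 1.5-fold change in either direction for 24 of the 41 genes (30.6% of all genes tested) and within a 2-fold change for all 41 (62%). Its half-width had a median of 0.35 and reached at most 0.77, against a median of 0.50 over all genes tested. The intervals rest on TMM scaling and leave out the choice of scale. Pools of the same age differed by a median of 0.16 on the log2 scale in ISC_2mth and 0.15 in ISC_22mth, and the median size of the age difference was also 0.16. Over all genes tested these medians were 0.21, 0.24 and 0.26. The age difference was larger than both pool differences for 13 of the 41 genes, against 39.7% of all genes tested. The old pools were both higher than the young ones for 12 genes (24% of all genes) and both lower for 8 (23.6%), together 48.8% of the replication genes and 47.6% of all genes tested.

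**Figure D2:**
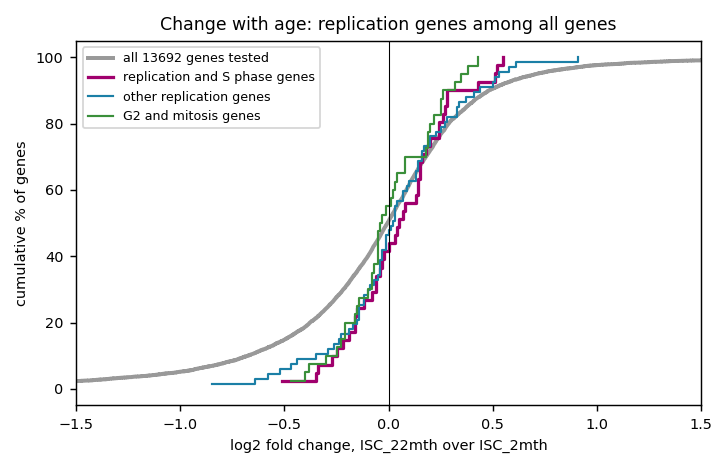
Cumulative percentage of genes (y axis) by log2 fold change (x axis, ISC_22mth over ISC_2mth, drawn to 1.5 on either side of 0) for the 41 replication genes beside the other replication list, the G2 and mitosis list and all 13692 genes tested. The medians are 0.05, 0.02, -0.04 and -0.01, and the replication genes stay between -0.51 and 0.55.

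The order of the genes by level was nearly the same in both ages. Levels of different genes were compared as CPM per kilobase (kb) of exonic length. This length joins the exons of all annotated transcripts of a gene, so that the order of genes depends on the annotation. Over the 42 genes Spearman's rho was 0.97 between the ages, 0.967 between the ISC_2mth pools and 0.968 between the ISC_22mth pools. These are descriptions over genes of the same libraries, and genes are not replicates. Per kb, the genes above the filter ran from 1.04 CPM (Ccne1, ISC_2mth) upwards, and Pcna, Mcm6 and Lig1 stood at 17.6, 14.8 and 14.7 CPM per kb in ISC_2mth and at 21.5, 17.0 and 16.0 in ISC_22mth.

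**Figure D3:**
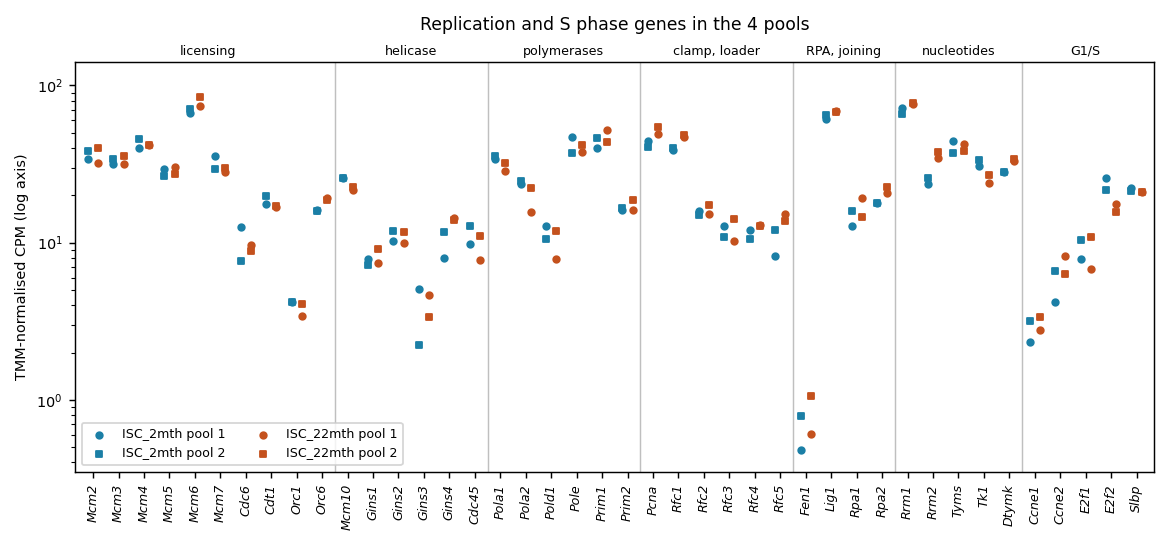
Level of each of the 42 replication genes in every pool, in CPM on a log axis, grouped by role. Colours mark the age and symbols the pool. The points of the 4 pools lie close together for most genes, and Fen1, with 0.483 to 1.06 CPM, stands below all others.

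Origin licensing was covered by 10 genes, of which 0 had an unadjusted p under 0.05 and 4 had pools that did not overlap, 2 with the old pools higher and 2 with them lower, where 16.9% and 47.6% of all genes tested did. Their median log2 fold change was -0.02, with a range of -0.16 to 0.24, and their summed level was 288 and 292 CPM in ISC_2mth and 287 and 308 CPM in ISC_22mth. Mcm6, a subunit of the MCM2 to MCM7 ring, had the highest CPM and the lowest p of the group. Its level was 67.2 and 71.2 CPM in the ISC_2mth pools and 74.3 and 84.4 CPM in the ISC_22mth pools. The old pools were higher, without overlap, by 0.20 ± 0.13 (SE) on the log2 scale (FDR = 0.45), and by 0.29 without the first and 0.10 without the second of them. Orc6, a subunit of the origin recognition complex, had 16.2 and 15.9 CPM in ISC_2mth and 19.1 and 18.8 CPM in ISC_22mth. Its pools were apart between the ages and close to each other within an age, and its log2 fold change was 0.24 ± 0.17 (FDR = 0.50). The 2 genes with both old pools lower were Orc1, another subunit of that complex, at 4.21 and 4.17 CPM against 3.41 and 4.09 CPM, and Cdt1, which brings the ring to the origin, at 17.7 and 19.8 CPM against 16.8 and 17.0 CPM. Their log2 fold changes were -0.16 (FDR = 0.84) and -0.15 (FDR = 0.71). That of Orc1 was -0.03 without the first ISC_22mth pool and -0.17 without the second ISC_2mth pool. That of Cdt1 was -0.23 without the first ISC_2mth pool and -0.07 without the second. For Cdc6, the loading ATPase, and for Mcm2, Mcm3, Mcm4, Mcm5 and Mcm7 the pools of the ages overlapped, with log2 fold changes between -0.16 (Mcm7) and 0.05 (Mcm5). Per kb, the 6 subunits of the MCM ring differed by 2.85 times between the lowest (Mcm2) and the highest (Mcm6) in ISC_2mth. Between the same genes in ISC_22mth it was 3.27 times. This order depends on the exonic length used, which was 6956 bases for Mcm2 and 4666 for Mcm6. In mean CPM of ISC_2mth, Mcm2 (36.2) stood above Mcm3 (32.9), Mcm7 (32.4) and Mcm5 (27.8), and below Mcm4 (42.6) and Mcm6 (69.2).

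Helicase activation was covered by 6 genes, with a median log2 fold change of 0.05 and summed levels of 66.7 and 71.5 CPM in ISC_2mth and 65.8 and 71.8 CPM in ISC_22mth. Gins4, a subunit of the 4-part GINS complex, was at 8.00 and 11.7 CPM in ISC_2mth and at 14.4 and 13.9 CPM in ISC_22mth. Both old pools were higher, and the young pools differed from each other by 0.55 on the log2 scale, about as much as the ages did (0.52 ± 0.21, FDR = 0.22). Without the first ISC_2mth pool the log2 fold change was 0.27, and without the second it was 0.82. Mcm10, which helps the helicase to start, had the highest CPM of this group, with 25.7 and 25.8 CPM in ISC_2mth and 21.6 and 22.7 CPM in ISC_22mth. It was lower in both old pools, by a log2 fold change of -0.22 ± 0.15 (FDR = 0.50). Cdc45 and the 3 other GINS genes overlapped between the ages, with log2 fold changes from -0.27 (Cdc45) to 0.14 (Gins1 and Gins3). That of Cdc45 was -0.04 without the first ISC_22mth pool and -0.53 without the second. Gins3 varied most between young pools, with 5.04 and 2.25 CPM in ISC_2mth and 4.62 and 3.36 CPM in ISC_22mth. Gins2 shared 67.3% of its exonic bases with Gse1 on the opposite strand, and since the strand setting of the counting is not given in the sources used here, reads of these 2 genes may not be separable. Gse1 itself had 161 and 179 reads in ISC_2mth and 102 and 96 in ISC_22mth, while Gins2 had 150 and 179 against 132 and 143.

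Polymerases and primase, which lay down the new strands, were covered by 6 genes, of which 2 had a log2 fold change above 0 and 4 below 0. The median was -0.13, and 0 of the 6 had an unadjusted p under 0.05 (16.9% of all genes). Pola2, the regulatory subunit of DNA polymerase alpha, had 23.6 and 24.5 CPM in ISC_2mth and 15.7 and 22.3 CPM in ISC_22mth. Both old pools were lower, the first far more than the second (log2 fold change -0.34 ± 0.18, FDR = 0.34). Without the first ISC_22mth pool the log2 fold change was -0.11 (FDR = 0.83), and without the second it was -0.61 with an FDR of 0.044, where 5.22% of all genes were called. Pola1, the catalytic subunit of the same enzyme, stood at 34.1 and 35.5 CPM in young ISCs and at 28.6 and 32.3 CPM in old ISCs. It too was lower in both old pools, with a log2 fold change of -0.19 ± 0.14 (FDR = 0.53). Without the first ISC_22mth pool the value was -0.10, and without the first ISC_2mth pool it was -0.22. Prim1, the catalytic subunit of the primase that works with them, showed 39.8 and 46.2 CPM in ISC_2mth and 52.2 and 43.7 CPM in ISC_22mth, which overlapped (0.16 ± 0.14, FDR = 0.61), with a log2 fold change of 0.02 without the first ISC_22mth pool and 0.28 without the second. Prim2, the other primase subunit, and Pold1 and Pole, the catalytic subunits of the polymerases delta and epsilon, overlapped as well, at log2 fold changes of 0.08, -0.25 and -0.08. The 4 subunits of polymerase alpha and primase summed to 114 and 123 CPM in ISC_2mth and to 113 and 117 CPM in ISC_22mth.

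The sliding clamp and its loader were covered by 6 genes, and all 6 had a log2 fold change above 0 (49.5% of all genes tested did), with a median of 0.22 and a range of 0.04 to 0.51. Their summed level was 132 and 129 CPM in ISC_2mth and 149 and 161 CPM in ISC_22mth, a ratio of means of 1.18. Pcna, the clamp itself, was at 44.2 and 40.5 CPM in the young pools and at 49.0 and 54.0 CPM in the old pools. The old pools were higher by 0.28 ± 0.13 on the log2 scale (FDR = 0.29). Rfc5, a small subunit of the loader, had 8.28 and 12.1 CPM in ISC_2mth against 15.1 and 13.8 CPM in ISC_22mth. Its young pools differed by 0.54 and its ages by 0.51 ± 0.21 (FDR = 0.22), and the log2 fold change was 0.27 without the first ISC_2mth pool and 0.80 without the second. Rfc1, the large subunit, and Rfc4 were also higher in both old pools, with log2 fold changes of 0.27 ± 0.13 (FDR = 0.31) and 0.18 ± 0.19 (FDR = 0.69), whereas Rfc2 and Rfc3 overlapped (0.07 and 0.04). The log2 fold change of Rfc4 was 0.28 without the first ISC_2mth pool and 0.08 without the second. With counts scaled by library totals 5 of the 6 lay below 0, between -0.45 (Rfc3) and -0.21 (Pcna), and only Rfc5 stayed above it, at 0.03. That scaling moved the median of all genes to -0.50, and all 6 lay above this median. With offsets for GC content and length Rfc3 was at -0.09, Rfc4 at -0.03 and Pcna at 0.14, and without the second ISC_22mth pool Rfc3 was at -0.20 and Rfc2 at -0.03. Of the 50-base stretches in the Pcna transcripts, 19.1% were also found in other genes, most in the pseudogene Pcna-ps2, which itself had between 19 and 29 reads per pool.

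Strand binding and the joining of Okazaki fragments were covered by 4 genes. The single-strand binding protein RPA was represented by its large subunit, Rpa1, and by Rpa2. Rpa2 had 17.9 CPM in both ISC_2mth pools and 20.7 and 22.7 CPM in the ISC_22mth pools. It was higher in both old pools, at a log2 fold change of 0.28 ± 0.16 (FDR = 0.41). Rpa1 overlapped, with 12.8 and 15.8 CPM against 19.2 and 14.6 CPM (0.24 ± 0.19, FDR = 0.56), and its log2 fold change ran from 0.03 without the first ISC_22mth pool to 0.43 without the second. Lig1, the ligase that seals the fragments, had 60.9 and 64.5 CPM in ISC_2mth and 69.1 and 67.8 CPM in ISC_22mth, higher in both old pools by 0.13 ± 0.12 (FDR = 0.65). Fen1, the nuclease that trims the fragments before they are sealed, was listed with 7 and 12 reads in ISC_2mth and 8 and 13 in ISC_22mth. The filter takes CPM on unscaled library totals, where Fen1 reached at most 0.913 and so was left out. In both fits that kept it, without a filter and with filterByExpr, its log2 fold change was 0.36 (FDR = 0.87 and 0.83). Per kb it stood below every other replication gene, at 0.264 CPM in ISC_2mth and 0.345 CPM in ISC_22mth. The gene lies at chr19:10199132-10204169 (minus strand, GRCm38), where 84.2% of its exonic bases are also exonic in Gm10143 or Tmem258 on the opposite strand. Tmem258 had between 104 and 138 reads per pool and Gm10143 between 1 and 6. Whether reads of Fen1 were lost to this overlap was not tested.

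**Figure D4:**
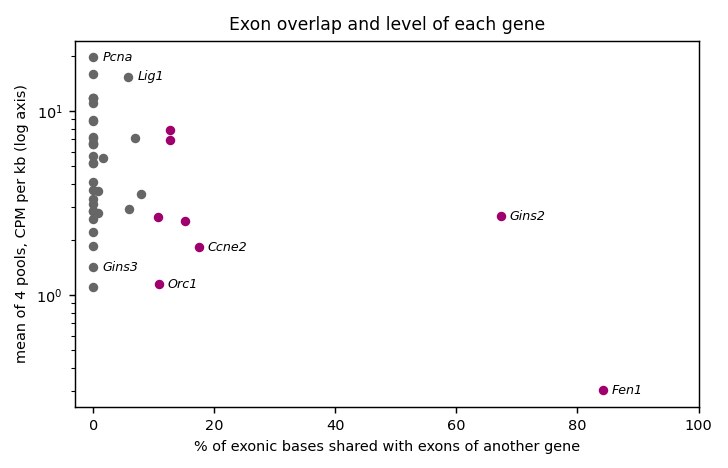
Share of each replication gene's exonic bases that is also exonic in another gene (x axis, percent) against its mean level over the 4 pools (y axis, CPM per kb, log axis). Genes with over 10% shared are coloured. Fen1 has the largest overlap, 84.2%, and the lowest level, while Gins2, with 67.3%, lies among the other genes.

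Fen1 and Gins2 were the extremes of a group in which 27 of the 42 genes had no exonic base in common with another gene, and 8 had over 10% of them in common. A narrower set of 28 genes, with under 5% of exonic bases and of 50-base stretches shared, had a median log2 fold change of 0.05. Of these, 0 passed an FDR of 0.05 and 4 had an unadjusted p under 0.05, and for 13 the pools of the ages did not overlap (14.3% and 46.4%, against 16.9% and 47.6% of all genes tested).

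Nucleotide supply was covered by 5 genes, and 4 of them had pools that did not overlap between ages, 3 with the old pools higher and 1 with them lower (47.6% of all genes tested did not overlap). Rrm2, the small subunit of ribonucleotide reductase, whose level sets the enzyme's activity in S phase, lies at chr12:24708241-24714146. It was counted with 344 and 387 reads in ISC_2mth and 457 and 462 in ISC_22mth, which is 23.7 and 25.6 CPM against 34.6 and 37.8 CPM. Both old pools were higher, and pools of the same age differed by at most 0.13 on the log2 scale. The log2 fold change of 0.55 ± 0.14 (95% interval 0.25 to 0.85) was the largest of the replication genes, and its FDR of 0.051 just missed the threshold. The study's own list of genes changed with age, from the same pools at an FDR under 0.05, holds Rrm2 as higher in old ISCs. Over the other ways of fitting, its FDR fell under 0.05 in the likelihood ratio test (0.019), with voom and sample quality weights (0.048), with the replicate number as a block (0.019), without a filter (0.031) and without the first ISC_22mth pool (0.013). Of all genes tested, these fits called 4.46%, 2.34%, 4.55%, 2.24% and 4.8%. It was 0.12 with DESeq2, 0.15 with offsets for GC content and length, where the log2 fold change was 0.43, 0.34 without the first ISC_2mth pool (1.15% of all genes called) and 0.77 with library totals, where the log2 fold change was 0.06. Rrm1, the large subunit of the same enzyme, was at 71.9 and 65.8 CPM in young ISCs and at 76.1 and 77.1 CPM in old ISCs. It was higher in both old pools by 0.15 ± 0.12 (FDR = 0.56), with a log2 fold change of 0.22 without the first ISC_2mth pool and 0.09 without the second.

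Tk1, the thymidine kinase that salvages thymidine in S phase, differed in the other direction, with 30.8 and 33.7 CPM in ISC_2mth and 24.0 and 26.8 CPM in ISC_22mth. Both old pools were lower, at a log2 fold change of -0.35 ± 0.15 (FDR = 0.23). Tyms, the thymidylate synthase of the de novo route, overlapped, with 44.4 and 37.1 CPM against 42.2 and 38.2 CPM (-0.02 ± 0.14, FDR = 0.96). Dtymk, the kinase that acts next on the product of both routes, had 28.1 and 28.3 CPM in ISC_2mth and 33.2 and 34.1 CPM in ISC_22mth, higher in both old pools by 0.26 ± 0.14 (FDR = 0.37). Ratios of 2 genes within a pool do not depend on the scaling of the library. The ratio of Rrm2 to Rrm1 reads was 0.330 and 0.390 in ISC_2mth and 0.454 and 0.491 in ISC_22mth, without overlap. For Tk1 over Tyms it was 0.694 and 0.909 against 0.568 and 0.700, which overlapped. These pairs were chosen after the values had been seen, and are given as descriptions.

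**Figure D5:**
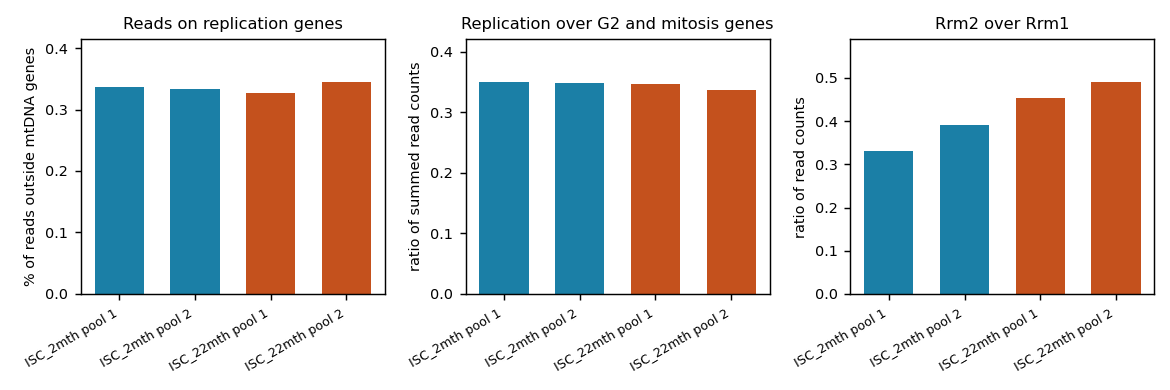
Bars for each of the 4 pools (x axis) give the percentage of reads outside mitochondrial genes that fell on replication genes, the ratio of reads on replication genes to reads on 40 genes of G2 and mitosis, and the ratio of Rrm2 to Rrm1 reads. The first lies between 0.327% and 0.345% and the second between 0.336 and 0.350, while Rrm2 over Rrm1 is higher in both ISC_22mth pools (0.454 and 0.491) than in the ISC_2mth pools (0.330 and 0.390).

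G1/S regulators and histone RNA processing were covered by 5 genes, with summed levels of 62.7 and 63.1 CPM in ISC_2mth and 56.4 and 57.1 CPM in ISC_22mth, a ratio of means of 0.902. E2f2, one of the activating E2F factors, at chr4:136172394-136196057, was counted with 375 and 326 reads in ISC_2mth and 232 and 191 reads in ISC_22mth, which is 25.9 and 21.6 CPM against 17.6 and 15.6 CPM. Both old pools were lower, and the log2 fold change of -0.51 ± 0.17 (95% interval -0.87 to -0.16, FDR = 0.12) was the lowest of the replication genes. Leaving out each pool in turn kept it between -0.64 and -0.38, and offsets for GC content and length gave -0.37 (FDR = 0.33). E2f1, the other activating factor listed, overlapped, with 7.87 and 10.4 CPM against 6.81 and 10.8 CPM (-0.06 ± 0.25, FDR = 0.93). The E2f2 to E2f1 ratio of reads was 3.29 and 2.08 in ISC_2mth and 2.58 and 1.45 in ISC_22mth, which overlapped. Ccne2, one of the E-type cyclins that drive entry into S phase, had 4.21 and 6.63 CPM in ISC_2mth and 8.25 and 6.31 CPM in ISC_22mth. These overlapped (0.43 ± 0.27, FDR = 0.46), and the log2 fold change was 0.14 without the first ISC_2mth pool and 0.79 without the second. The pools also overlapped for Ccne1, another E-type cyclin and the gene with the fewest reads of those tested, at 2.35, 3.18, 2.80 and 3.36 CPM (0.15 ± 0.37, FDR = 0.88). Slbp, which binds the stem-loop of histone mRNA, was at 22.4 and 21.3 CPM in ISC_2mth and 21.0 CPM in both ISC_22mth pools (-0.06 ± 0.16, FDR = 0.89).

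Changes were also set against GC content and length of the transcripts. Over the 41 genes Pearson's r of the log2 fold change was -0.36 with the GC content of the longest transcript and -0.44 with the logarithm of exonic length. Over the 13236 tested genes that had both values it was -0.16 and 0.03. The points share the same 4 libraries, and these are descriptions across genes. With offsets for both properties in each library the median log2 fold change of the replication genes was 0.04, 0 were called (1.31% of all genes were), and 4 had an unadjusted p under 0.05 (13.8% of all genes).

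Other genes of replication were taken from a longer list of 67, with accessory subunits, fork and checkpoint factors, chromatin assembly and further E2F, RB and cyclin genes. All 67 could be tested, and 2 had an FDR under 0.05 (2.26% of all genes tested did), both higher in ISC_22mth. Rpa3, the smallest RPA subunit, was counted with 108 and 120 reads in ISC_2mth and 196 and 172 in ISC_22mth, at 7.45 and 7.95 CPM against 14.8 and 14.1 CPM, and rose by 0.91 ± 0.20 on the log2 scale (FDR = 0.022), and 9.48% of its 50-base stretches were also found in other genes. Rnaseh2b, a subunit of the RNase that removes ribonucleotides from DNA, had 20.7 and 19.6 CPM in ISC_2mth and 27.5 and 34.1 CPM in ISC_22mth and rose by 0.61 ± 0.16 (FDR = 0.048). Pold2, the second subunit of polymerase delta, had the next lowest p, with 22.4 and 21.0 CPM against 14.2 and 15.0 CPM (-0.58 ± 0.17, FDR = 0.079). The ages did not overlap for any of these 3 genes. An unadjusted p under 0.05 was found for 15 of the 67 (22.4%, against 16.9% of all genes), 10 higher and 5 lower, and the median log2 fold change was 0.02. The study's own list of genes changed with age holds Rpa3 and Rnaseh2b. It also holds Dut as higher and Cdk6 as lower in old ISCs, whose FDR here was 0.096 and 0.11.

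Replication genes were also set beside 40 genes of G2 and mitosis, of which 0 had an FDR under 0.05 and 8 (20.0%) an unadjusted p under 0.05, 4 in each direction, against 2.26% and 16.9% of all genes tested. The median log2 fold change was -0.04, and the lowest FDR was 0.15, for the condensin gene Smc4 (188 and 212 CPM in ISC_2mth, 247 and 253 CPM in ISC_22mth, 0.32 ± 0.11). Next came Ncapd2, another condensin gene, at -0.38 ± 0.14 (FDR = 0.17), and Bub3, of the spindle checkpoint, at 0.38 ± 0.15 (FDR = 0.19). Smc4 is also in the study's own list of genes changed with age, as higher in old ISCs. The ratio of reads on the replication genes to reads on these 40 genes was 0.350 and 0.348 in ISC_2mth and 0.347 and 0.336 in ISC_22mth. It was lower in both old pools, by a margin of 0.001 between the nearest pools. The proliferation marker Mki67 had 902 and 948 CPM in young and 1003 and 1092 CPM in old ISCs (0.18 ± 0.10, FDR = 0.38), and Top2a had 405 and 409 CPM against 386 and 466 CPM (0.07 ± 0.11, FDR = 0.82).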

How the data were processed

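Gene counts of 4 RNA-seq libraries were used, 2 from ISC_2mth and 2 from ISC_22mth, each a pool of 5 animals. Groups and replicate numbers came from the sample labels. The authors trimmed reads with Trimmomatic 0.30, aligned them to GRCm38 with STAR 2.4.2a, counted reads in exons of GENCODE genes with featureCounts and deposited raw counts per gene, neither normalized nor filtered. The strand setting and the treatment of reads with several matches are not given in the sources used here.

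As in the study's methods, a gene was tested if any pool had over 5 reads and over 1 CPM of its unscaled total for it, which held for 13692 of 52459. Counts were normalized by TMM and ages compared with edgeR 4.0.16 (R 4.3.3), using the quasi-likelihood test without covariates and Benjamini-Hochberg adjustment over all genes kept (FDR, threshold 0.05). Standard errors came from the log2 fold change and the F value. The fit was tested on simulated data. Depth was between 11662654 and 15975698 counts per pool, and 3 counts corresponded to 0.188 to 0.257 CPM of unscaled totals. The biological coefficient of variation was 0.139. Nothing in the labels gives a batch. Replicate pools differed by more than sampling noise (mean chi-square of 10.3 for 13642 genes of ISC_2mth, and of 7.53 for 13338 genes of ISC_22mth), and p-values measure the spread between pools.

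Alternatives were other scalings (RLE, total counts, upper quartile, TMM without 37 genes of the mitochondrial genome and 4 loci like ribosomal RNA), other filters, the likelihood ratio test, voom in limma 3.58.1 (with sample quality weights, as the study names, or unweighted), DESeq2 1.42.0, the replicate number as a block, offsets for GC content and length (lowess, span 0.3, 3 iterations), and each pool left out.

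The 42 genes, their roles and the comparison lists were chosen with earlier results of these data known, so no test over a list is given. Values in every pool were given for genes with FDR under 0.05, the 2 of lowest p and the most abundant of each role, and genes under the filter. Of the comparison lists, genes with FDR under 0.05, the 3 of lowest p, Mki67 and Top2a were named. Other values of single pools were added after the values were seen. Positions, lengths, overlaps and shared 50-base stretches came from GENCODE vM21 on GRCm38, and promoters from RefSeq (GRCm38.p6). The authors counted reads on an earlier GENCODE release, so that overlaps may differ from those in their counts.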

Additional observations from a re-analysis of the deposited data

How the results depend on the processing

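Among the limits are the 2 pools per age, under which the 95% intervals of single replication genes reached from -0.87 (E2f2) to 1.00 (Ccne2) on the log2 scale. Another is the share of mitochondrial reads, which differed with age and makes the scaling by library totals differ from TMM. The count of replication genes with FDR under 0.05, 0 of 41 with TMM and the quasi-likelihood test, was 16 with total counts and 1 (Rrm2) without a filter, with the likelihood ratio test and with voom and sample quality weights. It stayed at 0 with RLE, the upper quartile, TMM without mitochondrial and ribosomal RNA-like loci, the 2 other filters, voom without weights, DESeq2 and the GC and length offsets. The number over all genes tested was 309, and it was 4650 with total counts, 554 without a filter, 611 with the likelihood ratio test, 197 with DESeq2 and 179 with the offsets. With each pool left out in turn, where the lone pool is assumed to vary like those of the other age, 0 to 1 replication genes and 151 to 710 genes in all were called. The single calls were Rrm2 without the first ISC_22mth pool (FDR = 0.013, 652 genes in all) and Pola2 without the second (FDR = 0.044, 710 genes in all), and without the first ISC_2mth pool the lowest FDR of a replication gene was 0.34 (151 genes in all). The median log2 fold change of the replication genes, 0.054, was -0.442 with total counts and between -0.022 and 0.103 with a pool left out, below 0 only without the second ISC_22mth pool. The ratio of summed levels, 1.05, was 0.745 with total counts, 1.00 with totals outside mitochondrial and ribosomal RNA-like loci, and 1.02 to 1.07 with a pool left out. Beyond the scaling and the samples left out, the cause of these differences was not tested.

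With the replicate number as a block, 1 replication gene (Rrm2, FDR = 0.019) and 623 genes in all were called. Nothing in the labels pairs pools of equal number, and the pools hold different animals. The difference between pools 1 and 2 had a correlation of -0.03 between ages over 8300 genes. This value cannot tell whether pools of equal number were handled together.

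Log2 fold changes of some genes changed sign. Total counts moved the median of all genes to -0.50, so that values up to 0.43 fell below 0, to -0.46 for Mcm3, -0.44 for Mcm5, -0.29 for Mcm6, -0.21 for Pcna, -0.22 for Rfc1, -0.42 for Rfc2, -0.45 for Rfc3, -0.32 for Rfc4, -0.33 for Prim1, -0.40 for Prim2, -0.35 for Gins1, -0.38 for Gins3, -0.25 for Orc6, -0.34 for Rrm1, -0.24 for Dtymk, -0.36 for Lig1, -0.25 for Rpa1, -0.21 for Rpa2, -0.33 for Ccne1 and -0.06 for Ccne2. The upper quartile gave -0.02 for Mcm3. The GC and length offsets gave 0.08 for Mcm2, -0.09 for Rfc3, -0.03 for Rfc4, 0.01 for Pole, -0.01 for Gins1, 0.02 for Gins2 and 0.08 for E2f1. With a pool left out, values ran from -0.17 to 0.15 for Mcm2, -0.05 to 0.10 for Mcm3, -0.12 to 0.07 for Mcm4, -0.02 to 0.13 for Mcm5, -0.03 to 0.17 for Rfc2, -0.20 to 0.26 for Rfc3, -0.57 to 0.02 for Pold1, -0.24 to 0.10 for Pole, -0.02 to 0.19 for Prim2, -0.02 to 0.29 for Gins1, -0.15 to 0.08 for Gins2, -0.34 to 0.82 for Gins3, -0.44 to 0.28 for Cdc6, -0.15 to 0.12 for Tyms, -0.05 to 0.39 for Ccne1 and -0.42 to 0.24 for E2f1. Of the values of single genes under alternatives, 625 kept their direction and their side of the threshold, 52 changed sign (20 with total counts and 32 with other settings) and 20 passed the threshold without a change of direction.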
